A study of Mus musculus with 12 samples.

Results

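The phagocyte NADPH oxidase is the enzyme with which macrophages and neutrophils make superoxide, and 6 of its subunits were examined here together with Duoxa1, whose product matures a related oxidase. The 7 genes are Cybb, Cyba, Ncf1, Ncf4, Rac1, Rac2 and Duoxa1, taken by name from the 18193 genes that the array annotation names. Where a gene had several probe sets, the brightest on average represented it and the others served as checks. The values are log2 signals of 12 Affymetrix arrays, each holding RNA of 1 mouse from hippocampal cells that were sorted on CD11b as microglia. There were 4 groups of 3 arrays. They were Balb/c mice whose forebrain received 10 Gy of X-rays once, through a field of 1 cm, Balb/c mice after sham treatment, C57BL/6 mice irradiated in the same way and C57BL/6 sham mice. The protocol gives ketamine and xylazine as anaesthetics and does not say whether sham mice also received them. All mice were females, with no mutation or transgene named, treated at 6.5 weeks and analysed at 10.5 weeks of age, 1 month later. Each array drew on 5000 to 10000 sorted cells, whose RNA went through 2 rounds of amplification.

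In the resting phagocyte the oxidase lies apart in pieces. Cybb (gp91phox, also called NOX2) and Cyba (p22phox) form the membrane-bound flavocytochrome b558 that carries electrons to oxygen, while p47phox (Ncf1) and p40phox (Ncf4) wait in the cytosol. On activation p47phox is phosphorylated and brings its partners to the membrane, and a Rac GTPase, mainly Rac2 in neutrophils, joins them. In microglia the complex is known as a source of the oxidative burst during inflammation. Duoxa1 is the maturation factor that takes the dual oxidase Duox1 out of the endoplasmic reticulum, and it is best known from thyroid and airway epithelium.

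Cybb, Ncf1 and Duoxa1 passed the irradiation test in both strains, and their RefSeq promoter windows are shown for that reason. Each window runs from 250 bases before to 50 bases after an annotated start, 300 bases in build GRCm38.p6, printed 5′ to 3′ on the minus strand that carries all 3 genes. Capitals mark every match, on either strand, to GAGGAA, the core of sites for the myeloid factor PU.1, or to GAAA repeated after a gap of 2 bases of any kind, the repeat of interferon response elements. The Cybb window lies at chrX:9469275-9469574, inside the annotated span of the gene, the Ncf1 window at chr5:134229576-134229875 and the Duoxa1 window at chr2:122313681-122313980.
Cybb: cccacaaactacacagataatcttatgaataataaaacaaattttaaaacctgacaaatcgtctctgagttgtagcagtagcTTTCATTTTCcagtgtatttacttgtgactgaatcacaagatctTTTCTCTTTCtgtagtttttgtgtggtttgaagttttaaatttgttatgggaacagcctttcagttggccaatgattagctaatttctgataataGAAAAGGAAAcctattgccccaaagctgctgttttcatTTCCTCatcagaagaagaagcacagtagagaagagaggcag
Ncf1: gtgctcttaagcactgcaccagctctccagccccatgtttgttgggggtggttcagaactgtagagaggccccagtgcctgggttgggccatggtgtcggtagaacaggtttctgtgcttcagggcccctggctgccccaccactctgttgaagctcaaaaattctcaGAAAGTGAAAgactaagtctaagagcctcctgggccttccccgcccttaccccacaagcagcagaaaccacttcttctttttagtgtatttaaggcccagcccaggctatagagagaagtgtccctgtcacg
Duoxa1: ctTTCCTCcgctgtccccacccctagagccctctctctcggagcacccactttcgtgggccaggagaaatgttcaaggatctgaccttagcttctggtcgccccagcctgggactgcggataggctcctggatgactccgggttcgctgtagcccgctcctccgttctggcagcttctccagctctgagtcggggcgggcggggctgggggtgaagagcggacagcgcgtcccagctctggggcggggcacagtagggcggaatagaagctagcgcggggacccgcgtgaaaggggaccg
The Cybb window held 3 matches to the interferon repeat, at bases 83 to 92, 127 to 136 and 222 to 231 counted from its 5′ end, and 1 match to the PU.1 core at bases 260 to 265. The Ncf1 window held 1 interferon match, at bases 169 to 178, and the Duoxa1 window 1 PU.1 match, at bases 3 to 8. Of the 32851 promoter windows in the table, 3.4% held the interferon repeat and 28.3% the PU.1 core, and the window of Cyba held neither. No match overlapped another. These are letter matches, and binding was not measured.

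The sorted cells carried markers of microglia. P2ry12, a purine receptor of resident microglia, had mean log2 values of 14.06 in Balb/c irradiated, 14.18 in Balb/c sham, 13.96 in C57BL/6 irradiated and 13.94 in C57BL/6 sham arrays. All 13 microglial markers on the array passed the filter, with a mean of 12.89 to 13.08 in Balb/c irradiated against 13.19 to 13.21 in Balb/c sham, and 13.06 to 13.24 in C57BL/6 irradiated against 13.26 to 13.31 in C57BL/6 sham arrays. Of these markers 3 fell in the average over strains (Itgam, Siglech and Trem2) and none rose. Over all tested genes 8.15% fell and 7.72% rose there. None of the 8 T and NK cell markers on the array reached a log2 value of 3. The RNA differed between groups as well. A measure of RNA integrity is the signal of 3′ minus that of 5′ probe sets for Actb and Gapdh, which grows as transcripts shorten, and it was 3.70, 4.82 and 4.21 in the Balb/c irradiated arrays and 3.50 to 3.81 in the other 3 groups. The 18S signal lay at 10.48 to 11.77 in irradiated arrays and at 11.93 to 12.32 in sham arrays. The summed signal of 8 astrocyte markers was 14.61 to 15.19 (log2) in Balb/c irradiated against 13.73 to 14.17 in Balb/c sham, and 14.29 to 14.81 in C57BL/6 irradiated against 13.56 to 14.10 in C57BL/6 sham arrays. That of 8 endothelial and pericyte markers was 13.42 to 13.76 in Balb/c irradiated against 12.08 to 13.03 in Balb/c sham, and 12.28 to 12.78 in C57BL/6 irradiated against 12.05 to 12.26 in C57BL/6 sham arrays. The sum of 5 oligodendrocyte markers was the highest after that of microglia in every array. It was 15.33 to 15.82 in Balb/c irradiated and 15.07 to 15.84 in Balb/c sham arrays. In C57BL/6 it was 15.73 to 15.92 in irradiated and 15.56 to 15.99 in sham arrays. The part of these cells and of RNA integrity in the results was not tested beyond the 3′ minus 5′ covariate. The largest 3′ minus 5′ differences, 4.82 and 4.21, both lay in Balb/c irradiated arrays. A fit with that covariate therefore cannot cleanly separate RNA integrity from irradiation in Balb/c, for any gene. In sorted bulk RNA, fewer cells of a type and less RNA per cell cannot be told apart.

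**Figure D1:**
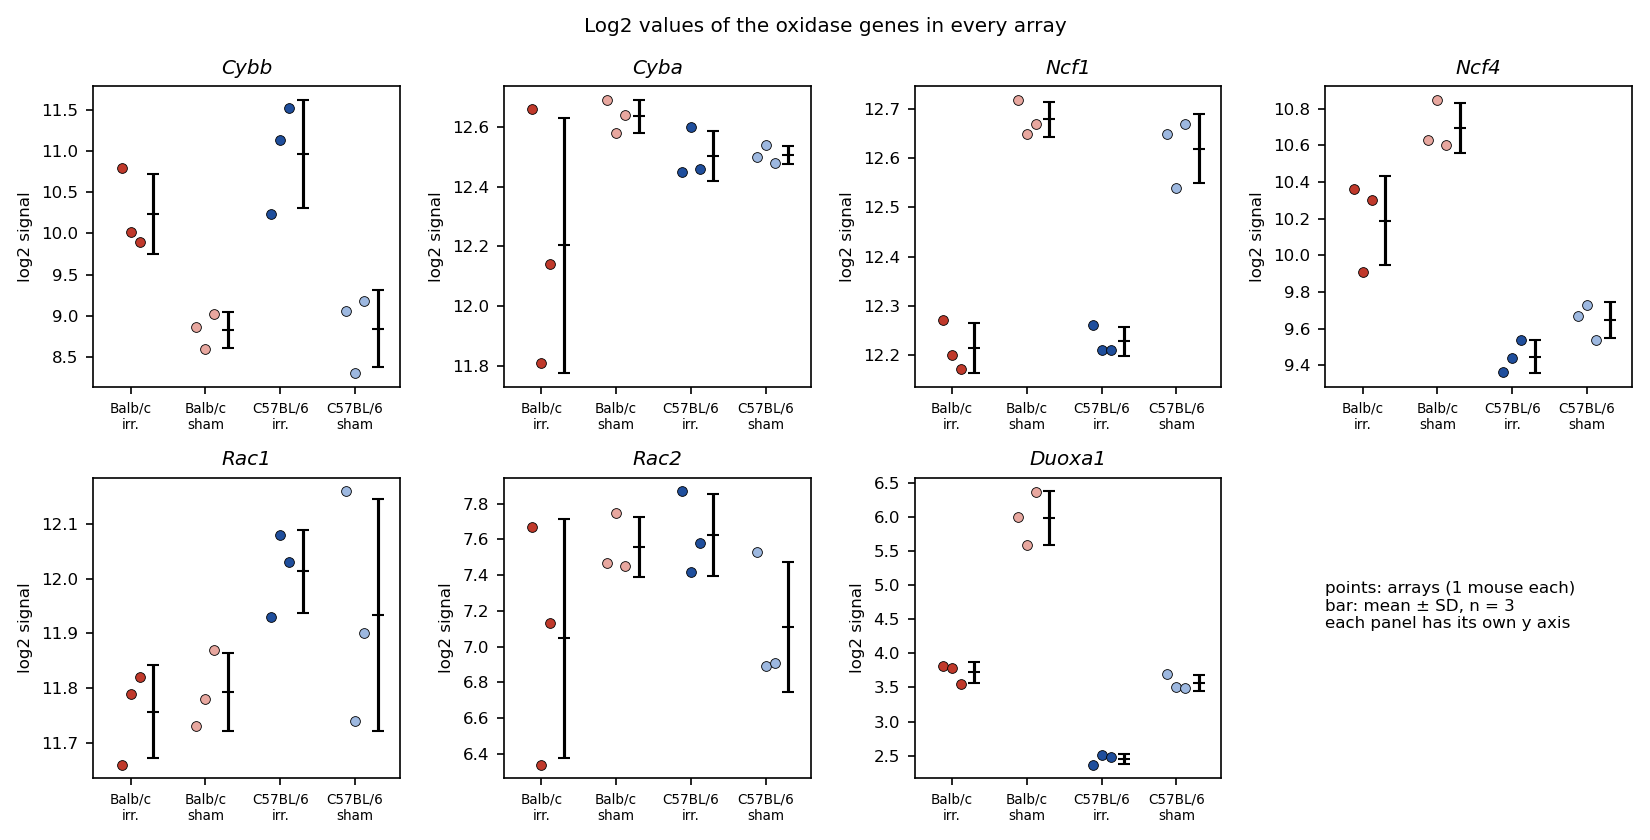
Log2 signal (y axis, its own range in each panel) of the 7 genes in every array, by group (x axis). Points are arrays and bars give mean ± SD (n = 3). Cybb was higher and Ncf1 and Duoxa1 lower in irradiated than in sham arrays of both strains, without overlap.

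After irradiation Cybb, the catalytic subunit, was higher and Ncf1, its organizer, lower in mice of both strains, Ncf1 by a smaller amount. Duoxa1 was also lower in both, in C57BL/6 within values near the bottom of the scale. Ncf4, Rac1, Rac2 and Cyba did not pass the test in either strain. The Cybb call held in 11 of 22 alternatives in Balb/c and in 19 of 22 in C57BL/6. The Ncf1 call held in 16 of 22 in Balb/c and in 6 of 22 in C57BL/6. In Balb/c mice 1 of the 7 genes rose and 2 fell, where 6.15% of the 9120 tested genes were called in either direction (3.26% higher and 2.89% lower). In C57BL/6 mice 1 rose and 2 fell, where 3.67% of genes were called (2.21% higher and 1.46% lower). A call means a Benjamini-Hochberg adjusted p under 0.05 in limma over all tested genes. Duoxa1, counted in both strains, was tested only because its 3 Balb/c sham arrays passed the filter. The arrays of the irradiated and the sham group did not overlap for 4 of the 7 genes in each strain, Cybb, Ncf1, Ncf4 and Duoxa1, beside 29.2% of all tested genes in Balb/c and 26.5% in C57BL/6. The median log2 difference of the 7 genes was -0.46 in Balb/c and 0.00 in C57BL/6, against -0.04 over all tested genes in each strain.

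Cybb encodes the electron-carrying core of the enzyme and lies on chromosome X (9435252 to 9487766, GRCm38.p6). Its log2 values were 10.79, 10.02 and 9.90 in Balb/c irradiated mice, against 8.87, 8.60 and 9.03 in Balb/c sham mice. In C57BL/6 mice they were 10.24, 11.13 and 11.52 after irradiation, against 9.06, 8.31 and 9.18 after sham treatment. Every irradiated array lay above every sham array, and the sham mice of both strains lay together. The difference was 1.41 ± 0.35 in Balb/c (SE, n = 3 each; 95% interval 0.63 to 2.18), 2.65-fold, with a limma adjusted p of 0.0408. In C57BL/6 it was 2.11 ± 0.35 (95% interval 1.34 to 2.89), 4.33-fold, with a limma adjusted p of 0.0101. Averaged over strains Cybb rose 3.39-fold (log2 1.76 ± 0.25, limma adjusted p = 0.00143), a call that held under every alternative tried.

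The call in each strain alone was less steady than the average. In Balb/c it was lost without Balb/c irradiated replicate 1 (limma adjusted p 0.105), 2 (0.0755) or 3 (0.0662), without Balb/c sham replicate 1 (0.106), 2 (0.133) or 3 (0.0711), and without C57BL/6 irradiated replicate 2 (0.0528). Its difference stayed between 1.13 and 1.57 in all 12 such fits. It was also lost without the filter on low values (0.132) and with the 3′ minus 5′ difference as a covariate (1.70, limma adjusted p 0.109). In C57BL/6 it kept its call without any 1 array, with differences of 1.83 to 2.48, but lost it without the filter on low values (limma adjusted p 0.0542) and when the C57BL/6 arrays were fitted alone (0.0706). The interaction, the response in Balb/c minus that in C57BL/6, was -0.71 ± 0.50 (95% interval -1.80 to 0.38, limma adjusted p 0.727), so a different response of the strains was not detected.

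The 2 further probe sets of Cybb stayed under the filter. One of them read 3.0, 2.60 and 2.90 in Balb/c irradiated against 2.38, 2.61 and 2.83 in Balb/c sham arrays, and 3.02, 3.75 and 4.38 in C57BL/6 irradiated against 2.94, 2.86 and 2.95 in C57BL/6 sham arrays. The other was at the bottom of the scale, 2.23, in 10 arrays and at 2.52 and 2.93 in C57BL/6 irradiated replicates 2 and 3. The highest readings of both thus lay in the C57BL/6 irradiated mice, while in Balb/c the dim probe set overlapped between irradiated and sham. When the mean of all 3 probe sets was used, the log2 difference was 0.55 in Balb/c (limma adjusted p 0.184, call lost) and 1.08 in C57BL/6 (0.0312).

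Cybb is also made by monocytes and neutrophils, and markers of monocytes moved with it. The summed signal of the 10 monocyte markers on the array was 12.89 to 13.04 (log2) in Balb/c irradiated against 11.46 to 11.94 in Balb/c sham arrays, and 13.23 to 13.34 in C57BL/6 irradiated against 11.77 to 12.38 in C57BL/6 sham arrays. Of these 10 genes, 5 rose in Balb/c (Cd44, F13a1, Fn1, S100a6 and Vim) and 6 in C57BL/6 (Ccr2, Cd44, Fn1, S100a4, S100a6 and Vim). Over all tested genes 3.26% rose in Balb/c and 2.21% in C57BL/6. Ccr2, the chemokine receptor of inflammatory monocytes, was called in C57BL/6 but not in Balb/c. It averaged 9.45 ± 0.50 in Balb/c irradiated and 8.28 ± 0.30 in Balb/c sham mice (SD, n = 3 each), and 9.62 ± 0.33 in C57BL/6 irradiated and 7.10 ± 0.95 in C57BL/6 sham mice. The summed signal of the 12 neutrophil markers on the array was 10.77 to 12.09 in Balb/c irradiated against 10.46 to 10.66 in Balb/c sham, and 10.61 to 11.76 in C57BL/6 irradiated against 10.61 to 11.86 in C57BL/6 sham arrays. S100a8 and S100a9 were the 2 of 5 tested neutrophil markers that rose in Balb/c, and none was called by limma in C57BL/6. The median log2 difference of the 5 tested neutrophil markers was 3.19 in Balb/c and -0.17 in C57BL/6, against -0.04 over all tested genes in each. Among sham mice 2 of the 5 were lower in Balb/c than in C57BL/6, where 5.24% of all tested genes were, with a median of -1.93. None of the 5 was called by limma between irradiated strains or in the interaction. Of the 12 on the array, 4 (Mpo, Elane, Cxcr2 and Mmp8) stayed below 3 on all arrays. The summed signal of the 11 border-associated macrophage markers was 13.67 to 14.11 in Balb/c irradiated against 13.28 to 13.44 in Balb/c sham, and 14.43 to 14.72 in C57BL/6 irradiated against 13.62 to 14.57 in C57BL/6 sham arrays. The part of these cells in the Cybb signal was not tested.

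**Figure D2:**
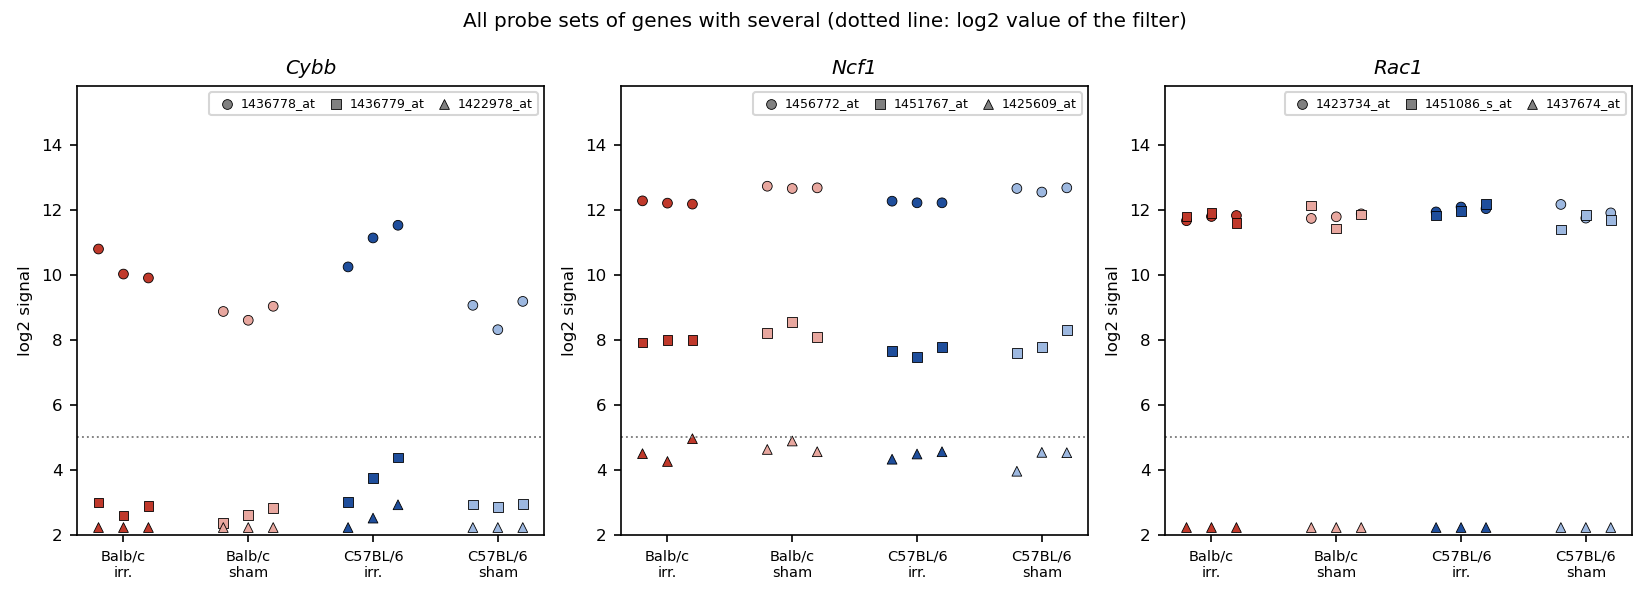
Log2 signal (y axis) of all probe sets of Cybb, Ncf1 and Rac1 in every array, by group (x axis, colours as groups); marker shapes are probe sets and the dotted line is the filter value of 5. The bright Cybb probe set separates irradiated from sham arrays, and its 2 dim probe sets lie below 5 throughout.

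Cyba encodes p22phox, the small membrane partner without which the flavocytochrome is unstable, and lies on chromosome 8 (122424771 to 122432940). On the log2 scale it read 12.66, 11.81 and 12.14 in Balb/c irradiated mice, against 12.69, 12.58 and 12.64 in Balb/c sham mice. In C57BL/6 they were 12.45, 12.60 and 12.46 after irradiation, against 12.50, 12.54 and 12.48 after sham treatment. Only 2 Balb/c irradiated arrays stood below the others, and the groups overlapped. The difference in C57BL/6 was 0.00 ± 0.17 (95% interval -0.38 to 0.39, limma adjusted p 0.999), which leaves room for a change of either sign smaller than these bounds. In Balb/c it was -0.43 ± 0.17 (95% interval -0.82 to -0.05, limma adjusted p 0.17), short of the threshold. Without Balb/c irradiated replicate 1 it was -0.66 and passed (limma adjusted p 0.0177), and without replicate 2 of the same group it was -0.24 (0.412). The 2 low arrays were those with the largest 3′ minus 5′ differences, 4.82 and 4.21. With that difference as a covariate the Balb/c value was -0.07 (limma adjusted p 0.871). Since both arrays belong to the Balb/c irradiated group, this fit cannot cleanly separate RNA integrity from irradiation.

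Ncf1 encodes p47phox, the phosphorylated organizer of the cytosolic complex, and lies on chromosome 5 (134220053 to 134229628). Log2 values of Ncf1 were 12.27, 12.20 and 12.17 in Balb/c irradiated mice, against 12.72, 12.65 and 12.67 in Balb/c sham mice. In C57BL/6 they were 12.26, 12.21 and 12.21 after irradiation, against 12.65, 12.54 and 12.67 after sham treatment. All 6 irradiated arrays lay below all 6 sham arrays, with a spread within groups of 0.03 to 0.07 (SD). The difference was -0.46 ± 0.09 in Balb/c (95% interval -0.66 to -0.27, 1.38-fold lower, limma adjusted p 0.0142) and -0.39 ± 0.09 in C57BL/6 (95% interval -0.59 to -0.20, 1.31-fold lower, limma adjusted p 0.0397). The interaction was -0.07 ± 0.13 (95% interval -0.35 to 0.21, limma adjusted p 0.915).

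The size of the Ncf1 difference hardly moved when arrays were left out, -0.49 to -0.44 in Balb/c and -0.43 to -0.37 in C57BL/6, but the calls stood close to the threshold. The C57BL/6 call was lost on leaving out any array but Balb/c irradiated replicate 2, with limma adjusted p-values of up to 0.129 (without C57BL/6 irradiated replicate 3). The Balb/c call was lost without Balb/c sham replicate 1 (0.0569) or Balb/c irradiated replicate 3 (0.0526). With the 3′ minus 5′ covariate the limma adjusted p was 0.107 in Balb/c and 0.0515 in C57BL/6. With the compared groups fitted alone it was 0.0598 in Balb/c and 0.146 in C57BL/6. The average over strains, -0.43 ± 0.06 (limma adjusted p 0.00184), kept its call without any 1 array. A second, dimmer probe set of Ncf1 read 7.92, 8.0 and 7.99 in Balb/c irradiated against 8.22, 8.55 and 8.08 in Balb/c sham mice, which also did not overlap. It read 7.66, 7.47 and 7.79 in C57BL/6 irradiated against 7.60, 7.79 and 8.31 in C57BL/6 sham mice, which did overlap. Its average difference was -0.28 ± 0.13 and did not pass (limma adjusted p 0.176 over 14438 probe sets). The remaining probe set stayed between 3.96 and 4.96, under the filter. The mean of all 3 probe sets differed by -0.30 in Balb/c (limma adjusted p 0.158), -0.18 in C57BL/6 (0.396) and -0.24 in the average (0.0768), so all 3 calls were lost.

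Ncf4 encodes p40phox, which binds a phosphoinositide of the phagosome membrane and steadies the complex there. It lies on chromosome 15 (78244164 to 78262582). Its log2 values were 10.36, 9.91 and 10.30 in Balb/c irradiated mice, against 10.63, 10.85 and 10.60 in Balb/c sham mice. In C57BL/6 they were 9.36, 9.44 and 9.54 after irradiation, against 9.67, 9.73 and 9.54 after sham treatment. The order of the group means was Balb/c sham, Balb/c irradiated, C57BL/6 sham and C57BL/6 irradiated, with no overlap of arrays between any neighbours, although at the last step the closest arrays both read 9.54. The strain difference was the steadier one. Ncf4 was 1.68-fold higher in Balb/c than in C57BL/6 among irradiated mice (0.75 ± 0.14, 95% interval 0.44 to 1.05, limma adjusted p 0.00572) and 2.06-fold higher among sham mice (1.05 ± 0.14, 95% interval 0.74 to 1.35, limma adjusted p 0.000557). Both held under every alternative tried.

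The irradiation difference of Ncf4 was -0.50 ± 0.14 in Balb/c (95% interval -0.80 to -0.20, limma adjusted p 0.0558) and -0.20 ± 0.14 in C57BL/6 (95% interval -0.50 to 0.10, limma adjusted p 0.412), neither of which passed. The Balb/c difference passed with the filter at 7 (limma adjusted p 0.0455), with probe sets of a gene averaged (0.0407) and with the trended, robust test (0.0399). Averaged over strains it fell by 0.35 ± 0.10 and passed (95% interval -0.57 to -0.14, limma adjusted p 0.0336). That brought the genes called in the average to 4 of 7, 1 higher and 3 lower, where 15.9% of all tested genes were called (7.72% higher and 8.15% lower). The call was lost in 8 of the 12 fits without 1 array, with a limma adjusted p of up to 0.0791, and held without C57BL/6 sham replicate 3, Balb/c sham replicate 3, Balb/c irradiated replicate 1 or Balb/c irradiated replicate 3. It was also lost with the 3′ minus 5′ difference as a covariate (-0.23, limma adjusted p 0.0998). The lowest Balb/c irradiated array for Ncf4, replicate 2, had the largest 3′ minus 5′ difference of all arrays.

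Rac1, the widely expressed GTPase that also drives cell movement, lies on chromosome 5 (143505481 to 143528031). Rac1 had log2 values of 11.66, 11.79 and 11.82 in Balb/c irradiated mice, against 11.73, 11.78 and 11.87 in Balb/c sham mice. In C57BL/6 they were 11.93, 12.08 and 12.03 after irradiation, against 12.16, 11.74 and 11.90 after sham treatment. The irradiation difference was -0.04 ± 0.12 in Balb/c (95% interval -0.30 to 0.22, limma adjusted p 0.881) and 0.08 ± 0.12 in C57BL/6 (95% interval -0.19 to 0.34, limma adjusted p 0.742), and the groups overlapped. A second bright probe set ranged from 11.39 to 12.17 and gave -0.04 in Balb/c (limma adjusted p 0.932) and 0.35 ± 0.19 in C57BL/6 (0.327). The remaining probe set stayed at 2.23 on all arrays.

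Rac2, the GTPase restricted to blood cells, lies on chromosome 15 (78559169 to 78572783). Rac2 had log2 values of 7.67, 6.34 and 7.13 in Balb/c irradiated mice, against 7.47, 7.75 and 7.45 in Balb/c sham mice. In C57BL/6 they were 7.87, 7.42 and 7.58 after irradiation, against 7.53, 6.89 and 6.91 after sham treatment. The groups overlapped in both strains, and the means moved apart in opposite directions. The difference was -0.51 ± 0.30 in Balb/c (95% interval -1.17 to 0.15, limma adjusted p 0.346) and 0.51 ± 0.30 in C57BL/6 (95% interval -0.15 to 1.17, limma adjusted p 0.341). The interaction was -1.02 ± 0.42 (95% interval -1.96 to -0.09) with an unadjusted p of 0.034 and a limma adjusted p of 0.583. As for Cyba, the 3 Balb/c irradiated arrays ran in the reverse order of their 3′ minus 5′ difference. With that difference as a covariate the Balb/c value was 0.03 (limma adjusted p 0.972), and without Balb/c irradiated replicate 2 it was -0.16 (0.777). The covariate fit has the same limit as for Cyba. The second probe set of Rac2 stayed at 2.23.

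**Figure D3:**
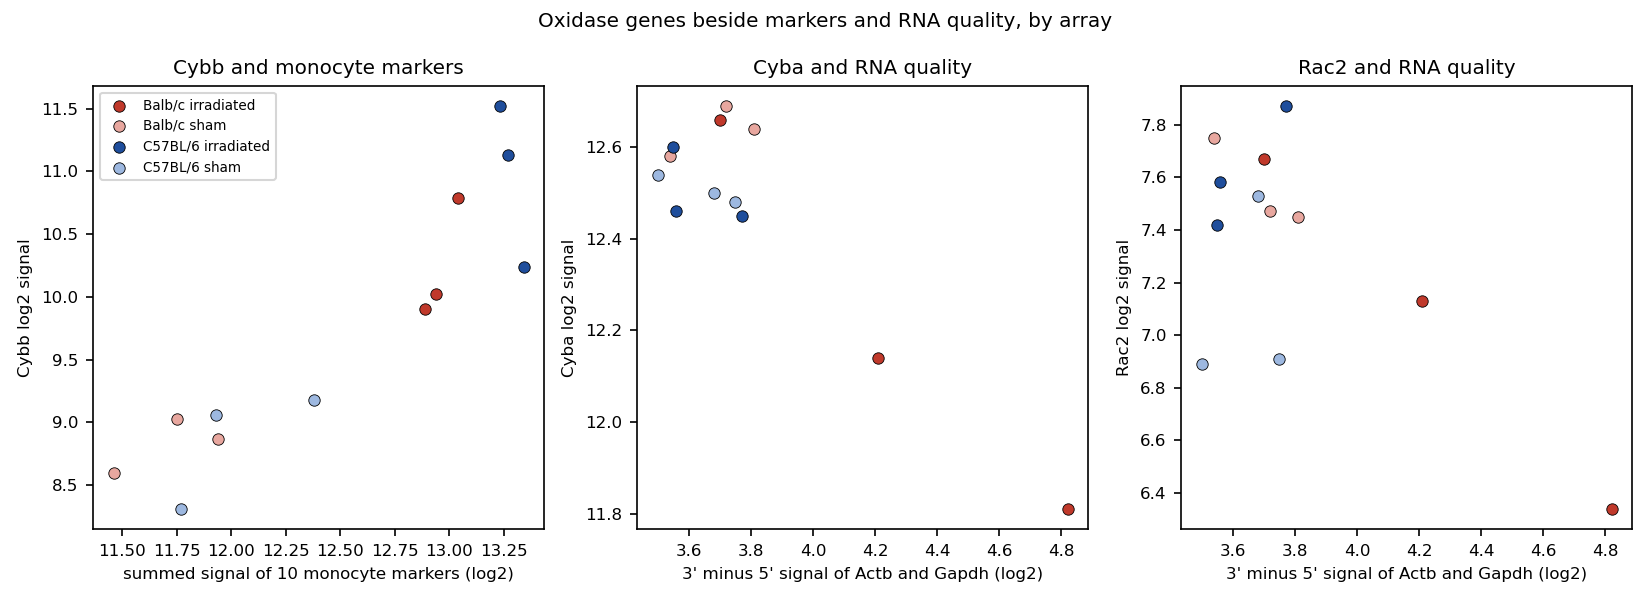
Left, Cybb log2 signal (y axis) against the summed log2 signal of 10 monocyte markers (x axis) in each array, coloured by group. Middle and right, Cyba and Rac2 log2 signal against the 3′ minus 5′ signal difference (log2) in Actb and Gapdh. Both Cybb and the monocyte markers are higher in all irradiated arrays, and the array with the 3′ minus 5′ difference of 4.82 is the lowest for Cyba and Rac2.

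Duoxa1 lies on chromosome 2 (122303540 to 122313763) and had 1 probe set. Its log2 values were 3.82, 3.79 and 3.55 in Balb/c irradiated mice, against 5.99, 5.58 and 6.37 in Balb/c sham mice. In C57BL/6 they were 2.37, 2.51 and 2.48 after irradiation, against 3.70, 3.50 and 3.49 after sham treatment. The Balb/c sham mice stood above all others, the Balb/c irradiated and C57BL/6 sham arrays overlapped, and the C57BL/6 irradiated arrays lay close to 2.23, the lowest value on the array. Duoxa1 passed the filter only through its 3 Balb/c sham arrays, so its presence among the tested genes already depended on that group.

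The Duoxa1 difference on the log2 scale was -2.26 ± 0.18 in Balb/c (95% interval -2.65 to -1.87) with a limma adjusted p of 8.73e-05, and -1.11 ± 0.18 in C57BL/6 (95% interval -1.50 to -0.72) with one of 0.00826. No fold is given, since all groups but Balb/c sham lay below 4, under the filter value of 5. With values under 4 set to 4 the Balb/c difference was -1.98 (limma adjusted p 9.44e-05) and the C57BL/6 difference 0.00, its call lost. With all 18193 genes tested and no filter, the limma adjusted p was 0.00148 in Balb/c and 0.0325 in C57BL/6. The interaction was -1.15 ± 0.25 (95% interval -1.70 to -0.60) with an unadjusted p of 0.000823 and a limma adjusted p of 0.211, short of the threshold. With the floor at 4, which sets all C57BL/6 arrays equal, it was -1.98 (limma adjusted p 0.00491). Duox1, the oxidase that Duoxa1 serves, did not exceed 2.24 on any array.

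**Figure D4:**
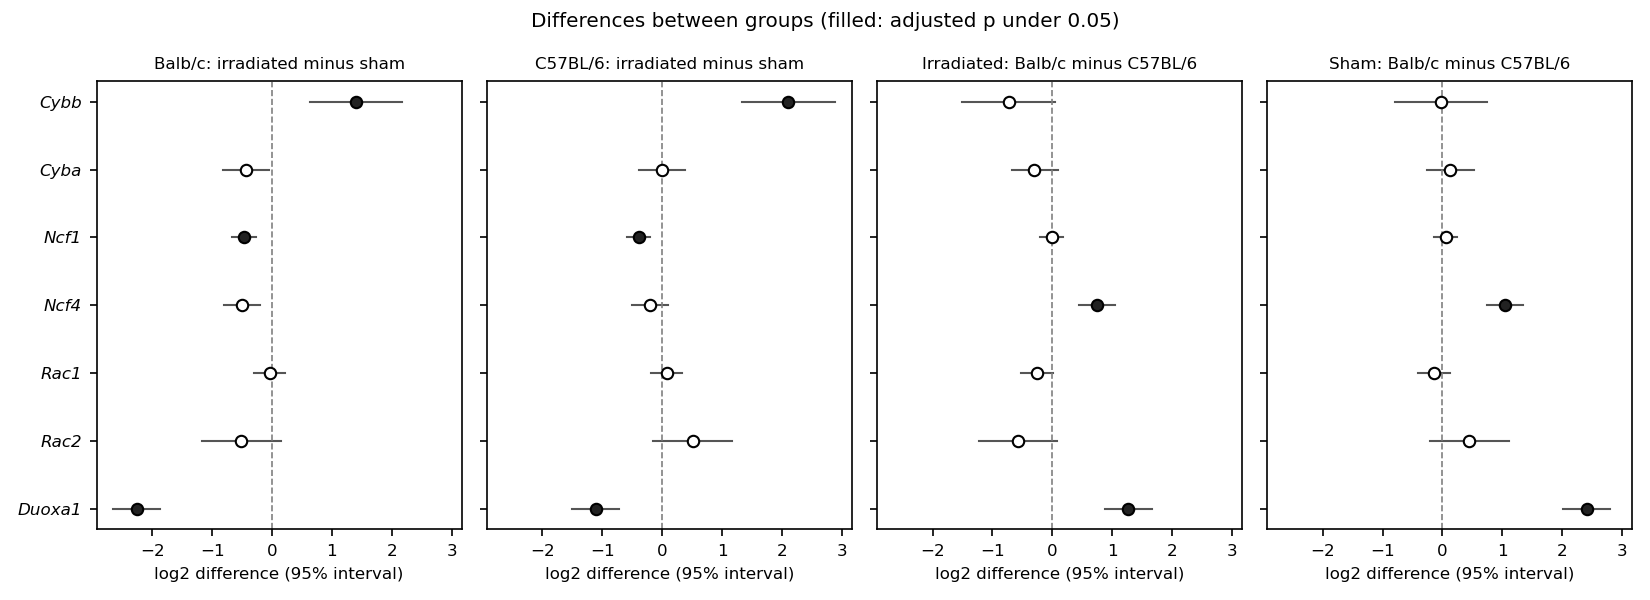
Log2 differences (x axis) with 95% intervals for the 7 genes (rows) in 4 comparisons (panels); filled points have a limma adjusted p under 0.05. Cybb lies to the right of 0 and Ncf1 and Duoxa1 to the left in both irradiation panels, and Ncf4 and Duoxa1 to the right in both strain panels.

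None of the 7 genes passed the test of the interaction in limma, where 0.0768% of tested genes did. Rac2 and Duoxa1 were the 2 with an unadjusted p under 0.05, a cut whose share of all tested genes was not computed. A count of 0 called genes was also reached with the trended, robust form of the test. Between strains, 2 of the 7 genes, Ncf4 and Duoxa1, were higher in Balb/c and none was lower, in irradiated as in sham mice. Of these, Duoxa1 was tested only because its Balb/c sham arrays passed the filter. Over all tested genes 8.97% were called in irradiated mice (4.38% higher and 4.59% lower) and 10.5% in sham mice (5.22% higher and 5.24% lower). Arrays of the strains did not overlap for 3 of the 7 genes in irradiated mice, beside 27.4% of all tested genes, and for 3 of the 7 in sham mice, beside 28.5%. Duoxa1 differed by 1.27 ± 0.18 on the log2 scale among irradiated mice (95% interval 0.88 to 1.66, limma adjusted p 0.00104), where all arrays lay below 4 and a floor at 4 made the difference 0.00. Among sham mice it differed by 2.41 ± 0.18 (95% interval 2.02 to 2.80, limma adjusted p 6.99e-06), or by 1.98 with the floor. Cybb differed between strains by -0.73 ± 0.35 in irradiated mice (95% interval -1.50 to 0.05, limma adjusted p 0.256) and by -0.02 ± 0.35 in sham mice (95% interval -0.79 to 0.75, limma adjusted p 0.985). Ncf1 differed by -0.01 ± 0.09 (95% interval -0.21 to 0.18, limma adjusted p 0.961) and 0.06 ± 0.09 (95% interval -0.14 to 0.25, limma adjusted p 0.782). Rac1 arrays did not overlap in irradiated mice, lower in Balb/c by 0.26 ± 0.12 on the log2 scale without passing (limma adjusted p 0.24). Cyba was 0.13 ± 0.17 higher in Balb/c sham mice, also without overlap and without passing (0.725), and Rac2 differed by -0.58 ± 0.30 in irradiated (0.294) and 0.45 ± 0.30 in sham mice (0.424).

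**Figure D5:**
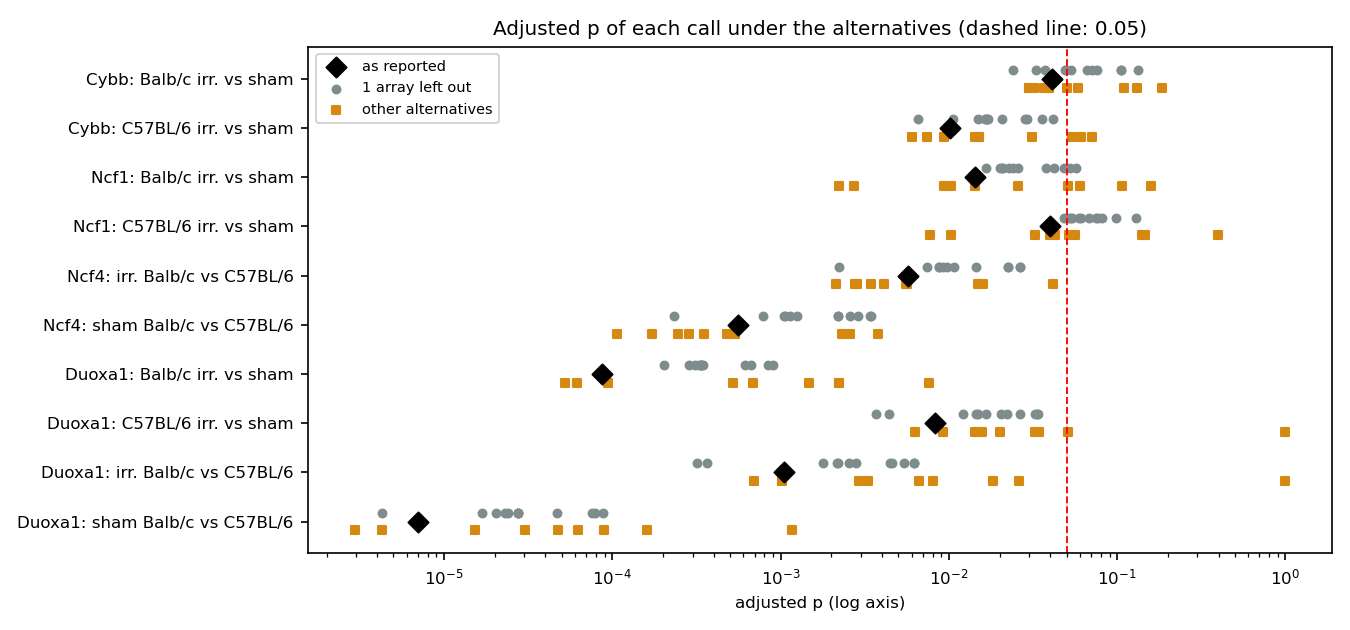
Limma adjusted p (x axis, log scale) of each call within a strain or treatment (rows) as reported, with each array left out and under the other alternatives; the dashed line is 0.05. The calls of Ncf1 in C57BL/6 and of Cybb in Balb/c cross 0.05 most often, while the Ncf4 strain calls and the Duoxa1 calls in Balb/c and between sham strains stay below it. Duoxa1 passed the filter only through its Balb/c sham arrays.

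Of the remaining oxidase partners on the array none passed the test. Cybc1, a chaperone of the flavocytochrome, Hvcn1, the proton channel that offsets the charge of the burst, and Rap1a, a small GTPase that copurifies with the flavocytochrome, were tested and none was called in any comparison by limma. At an unadjusted p under 0.05, 2 of the 3 passed in the average over strains. The share of all tested genes at that cut was not computed, here or for the lists below. Such counts alone are therefore not read as a change. Cybc1 averaged 9.21 ± 0.31 in Balb/c irradiated and 9.55 ± 0.20 in Balb/c sham mice, and 9.48 ± 0.19 in C57BL/6 irradiated and 9.77 ± 0.21 in C57BL/6 sham mice (SD, n = 3 each). Its average difference was -0.32 (limma adjusted p 0.117). Hvcn1 differed by -0.35 ± 0.12 in Balb/c (limma adjusted p 0.107) and -0.09 ± 0.12 in C57BL/6 (0.703). Nox1, Nox3, Noxa1 and Duox2 were not analysed here. Of the other NADPH oxidase genes, Nox4, Duox1 and Duoxa2 lay below 3 on all arrays and Noxo1, an organizer of Nox1, reached at most 5.74 and did not pass the filter.

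Among 21 tested kinases and receptors that activate the oxidase, 3 rose and 1 fell in Balb/c, and 1 rose and none fell in C57BL/6. Over all tested genes 6.15% were called in Balb/c and 3.67% in C57BL/6. Pla2g4a, the cytosolic phospholipase that releases arachidonic acid, rose in both. It averaged 12.68 ± 0.29 in Balb/c irradiated and 11.37 ± 0.05 in Balb/c sham mice, and 12.26 ± 0.21 in C57BL/6 irradiated and 11.18 ± 0.20 in C57BL/6 sham mice (limma adjusted p 0.00219 in Balb/c and 0.00682 in C57BL/6). C5ar1, the receptor for complement fragment C5a, averaged 5.47 ± 0.22 in Balb/c irradiated against 3.87 ± 0.42 in Balb/c sham mice and rose there (limma adjusted p 0.00233). It averaged 7.01 ± 0.16 in C57BL/6 irradiated against 6.28 ± 0.24 in C57BL/6 sham mice (0.0855). The formyl peptide receptor Fpr2 rose in Balb/c by 2.01 ± 0.50 (limma adjusted p 0.0395), with 1.66 ± 0.50 in C57BL/6 (0.0903). Syk, the kinase downstream of Fc receptors, fell in Balb/c by 0.61 ± 0.13 (limma adjusted p 0.0223). None of the 21 genes was called by limma in the interaction, where 0.0768% of all tested genes were. In the average over strains, where 15.9% of all tested genes were called, 3 rose and 4 fell. Among those that fell were Pik3r5, a regulatory subunit of phosphoinositide 3-kinase gamma (-0.57 ± 0.11, limma adjusted p 0.00767), and Itgam, which encodes CD11b, the antigen used for the sort (-0.84 ± 0.21, limma adjusted p 0.0237). The median of the list was -0.09 in the average, against -0.05 over all tested genes. Between sham strains 3 of the 21 were higher and 2 lower in Balb/c, among them Pik3cg, the catalytic subunit of that kinase (0.95 ± 0.13, limma adjusted p 0.000779), and the receptors P2rx7 (-1.64 ± 0.31, 0.00557) and C5ar1 (-2.41 ± 0.21, 3.12e-05). In irradiated mice 3 were higher and 4 lower in Balb/c. Over all tested genes 10.5% were called between sham and 8.97% between irradiated strains.

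Of 18 tested regulators of Rac, 1 rose and 2 fell in Balb/c, where 6.15% of all tested genes were called. No regulator was called by limma in C57BL/6, where 3.67% of all tested genes were. There 5 regulators had an unadjusted p under 0.05, a cut whose share of all tested genes was not computed. Arhgap15, which switches Rac off, averaged 6.52 ± 0.38 in Balb/c irradiated against 4.83 ± 0.42 in Balb/c sham mice and rose there by 1.69 ± 0.35 (limma adjusted p 0.0178), with 1.20 ± 0.35 in C57BL/6 (0.0819). The exchange factors Vav1 and Vav2, which switch Rac on, fell in Balb/c by 0.48 ± 0.12 (limma adjusted p 0.041) and 0.72 ± 0.15 (0.0211). No regulator was called by limma in the interaction, so a different response of the strains was not detected. Over all tested genes 0.0768% were called there. In the average over strains, where 15.9% of all tested genes were called, 3 regulators rose and 4 fell, with a median of -0.11. Among them Prex1, an exchange factor for Rac2, fell by 0.49 ± 0.11 (limma adjusted p 0.0133), Chn2, a Rac inactivator, fell by 0.37 ± 0.10 (0.0297) and the Rac activator Def6 rose by 0.75 ± 0.19 (0.0226). Genes of both actions on Rac thus stood on both sides. Between sham strains 3 were lower in Balb/c, Dock1 (-0.92 ± 0.16, limma adjusted p 0.00394), Tiam1 (-0.81 ± 0.15, 0.0049) and Arhgap15 (-1.50 ± 0.35, 0.0174), and none was higher. In irradiated mice no regulator was called by limma between strains, with 5 at an unadjusted p under 0.05. Over all tested genes 10.5% were called between sham and 8.97% between irradiated strains.

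Of 8 tested transcription factors known to act on Cybb, none rose. In Balb/c, where 6.15% of all tested genes were called, 1 fell, Irf8, a partner of PU.1 in myeloid cells. Irf8 averaged 11.84 ± 0.32 in Balb/c irradiated and 12.74 ± 0.13 in Balb/c sham mice (-0.90 ± 0.16, limma adjusted p 0.0102), and 12.26 ± 0.12 in C57BL/6 irradiated and 12.65 ± 0.13 in C57BL/6 sham mice (-0.39 ± 0.16, 0.189). In C57BL/6 none was called by limma, where 3.67% of all tested genes were. There 4 had an unadjusted p under 0.05, a cut whose share of all tested genes was not computed. In the average 3 fell, Irf8 (-0.65 ± 0.11, limma adjusted p 0.00475), the ETS factor Elf1 (-0.37 ± 0.11, 0.0429) and Satb1 (-0.81 ± 0.22, 0.0334), and none rose. The list's median was -0.31 there, against -0.05 over all tested genes, of which 15.9% were called. Between strains none was called by limma in irradiated mice, where 2 had an unadjusted p under 0.05, or in sham mice, where 0 did. Over all tested genes 8.97% were called between irradiated and 10.5% between sham strains.

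None of the 8 tested enzymes that remove superoxide and peroxide was called by limma in any comparison. In the average over strains 3 had an unadjusted p under 0.05, a cut whose share of all tested genes was not computed. The list's median was 0.20 there, against -0.05 over all tested genes. The superoxide dismutase Sod1 averaged 12.96 ± 0.04 in Balb/c irradiated and 12.75 ± 0.03 in Balb/c sham mice, and 12.98 ± 0.23 in C57BL/6 irradiated and 12.61 ± 0.15 in C57BL/6 sham mice. Its average difference was 0.29 ± 0.09 (limma adjusted p 0.0559).

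Genes were also ranked by how closely their profile over the 12 arrays, centred on its own mean, followed that of each called gene, as the root mean square difference of log2 values. Nearest to Cybb were Lgals3 at 0.35, Fxyd5 at 0.38, and Pclaf and Ms4a6c at 0.39 each, where Cybb itself varied by 1.04 (SD over 12 arrays). Lgals3, which encodes galectin-3, differed by 1.22 between irradiated and sham Balb/c mice and by 2.32 between irradiated and sham C57BL/6 mice. Nearest to Ncf1 were Kmt2c at 0.08, Smarcd2 and Bcl10 at 0.09 each and 1110059G10Rik at 0.10, where Ncf1 varied by 0.23. Nearest to Ncf4 were Vps33a at 0.17, Rtf2 at 0.18, and Inppl1 and Wdr46 at 0.19 each, where Ncf4 varied by 0.53. Nearest to Duoxa1 were Col6a3 and Ipcef1 at 0.54 each and Slamf8 and Kcnma1 at 0.57 each, where Duoxa1 varied by 1.35.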

How the data were processed

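RNA of CD11b+ hippocampal cells was measured on 12 Affymetrix arrays, 1 mouse each, grouped by the labels. The authors deposited GCRMA values on the log2 scale, per the submitters' processing notes, which name no version. There were 45101 probe sets, with values of 2.23 to 16.2 whose distribution was equal in all arrays (sorted values within 0.001). The annotation names 34945 with 1 symbol and 932 with several, left unnamed here. Of the 34945 probe sets with 1 symbol, 34741 took the RefSeq symbol of their Entrez identifier, whether or not it differed.

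The probe set with the highest mean represented each of 18193 genes. Limma 3.58.1 (R 4.3.3; lmFit, eBayes) fitted the 9120 genes above 5 in at least 3 arrays, with a mean for each group, leaving 8 residual degrees of freedom. Benjamini-Hochberg adjustment ran over all genes of a comparison. Array number limits the precision.

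The members and the gene lists were chosen with earlier results of these data known. Named were all 7 genes, their relatives Cybc1, Hvcn1, Nox1, Nox4, Duox1, Duox2 and Duoxa2 (another relative is not reported here), up to 5 called genes per list and comparison by smallest p, and the 4 nearest profiles of each called gene. Same-numbered arrays of the 2 irradiated groups deviated together (correlations 0.22, 0.45 and 0.32). In no other pair of groups were all 3 numbers above 0.1, though some were positive throughout. C57BL/6 irradiated with Balb/c sham gave 0.09, 0.17 and 0.42, Balb/c sham with Balb/c irradiated 0.06, 0.07 and 0.28, and C57BL/6 sham with Balb/c irradiated 0.18, 0.11 and 0.02. The labels give no shared batch. Between the 2 irradiated groups the replicate block changed no call. Alternatives were the filter, a floor, probe set rules, eBayes settings, array weights, fewer groups, a replicate block, a 3′ minus 5′ covariate and arrays left out. Promoters came from RefSeq (GRCm38.p6), which matched 4 of the 7 genes by symbol.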

Additional observations from a re-analysis of the deposited data

How the results depend on the processing

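Of the 14 calls for single genes, 6 held under every alternative that could test them, namely the average rise of Cybb, the Ncf4 strain differences and the Duoxa1 differences in Balb/c, in the average and between sham mice. These Duoxa1 calls all use the Balb/c sham arrays. The gene passed the filter only through those arrays, so the steadiness of its calls is not separate support. Of the 28 comparisons not called, 5 were called under at least 1 alternative, and of 599 values under alternatives 28 had the other sign, none of them in a call. The count of called genes among the 7 changed by over 1.5 times as follows. With a filter at 7, which leaves out Duoxa1, it was 1 (Ncf4) in each strain comparison. With a floor at 4 it was 1 (Ncf4) between irradiated strains and 1 (Duoxa1) in the interaction. It was 1 in C57BL/6 (Duoxa1) with the compared groups fitted alone, and 1 in Balb/c (Duoxa1) with the 3′ minus 5′ covariate. Without Balb/c irradiated replicate 2 and C57BL/6 irradiated replicate 3 together, a pair singled out in earlier work on these data, it was 1 in Balb/c (Duoxa1) and 0 in C57BL/6, where Cybb (1.83, limma adjusted p 0.0606), Ncf1 (-0.39, 0.14) and Duoxa1 (-1.12, 0.0512) missed the threshold with fewer arrays. Smaller shifts were 2 in Balb/c, 2 in C57BL/6 and 3 in the average without the filter or with the mean of all probe sets, 2 in Balb/c with the compared groups alone, and 4 in Balb/c with the trended, robust test. In C57BL/6 it was also 2 with the filter at 7, the floor or the covariate, and in the average 3 with the filter at 7, the covariate or that pair left out. Without each array in turn it was 1 to 3 in Balb/c (1 without Balb/c sham replicate 1 or Balb/c irradiated replicate 3), 2 to 3 in C57BL/6, 3 to 5 in the average, 2 to 3 between irradiated strains (3 without Balb/c irradiated replicate 1, with Cyba at -0.53), 2 between sham strains and 0 in the interaction. Deviations from the group means of same-numbered arrays correlated at -0.05 to 0.45, above 0.1 in 9 of 18 pairs, and those of other arrays at -0.39 to 0.20, above 0.1 in 9 of 36 pairs. The share above 0.1 was thus larger among same-numbered arrays. The labels give no shared batch, and the reported fits used no block. With the replicate number as a block the count was 3 in Balb/c, 2 in C57BL/6 and 3 in the average, losing Ncf1 in C57BL/6 (limma adjusted p 0.056) and Ncf4 in the average (0.0565). It was 2 in each strain comparison and 0 in the interaction, as without the block. The mean of all probe sets gave Rac2 no value, since that mean fell under the filter. The background correction of the deposited values could not be varied without scanner files, which were not used here.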
